A study of Rattus norvegicus with 2 samples.

Results

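Heat-shock chaperones are described here in cardiac cells of neonatal rats as 8 genes taken by name from the 25399 listed genes, namely Hspa1b, Hspa5, Hspa8, Hspb1, Hsph1, Hsp90aa1, Hsp90ab1 and Dnajb1. Hearts came from Sprague-Dawley rats aged 1 to 3 days, with male and female animals pooled. The cells were enriched by Percoll gradient for intrinsic cardiac adrenergic (ICA) cells, which are cells of the heart that make catecholamines. They were kept with 1 µg/mL of the bacterial cell wall component lipopolysaccharide (LPS) or with saline as the control for 2 h, and both groups were then detached with trypsin and EDTA. Each condition gave 1 single-cell library of the 10X Genomics 3′ kind, so there is no replicate and no test, and a difference between the libraries cannot be told apart from a difference in their handling.

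The level of a gene in a cluster is its unique molecular identifiers (UMIs) summed over the cells, per 1000000 UMIs of that cluster (CPM). Clusters were taken from the deposited table of cells. Clusters 0, 1 and 7 are named Fibroblast, cluster 3 ICA and Cardiomyocyte, clusters 4 and 5 Endothelial, cluster 6 Macrophages, and clusters 2, 8, 9 and 10 have no name. All intervals are at 95% and cover counting error only. Those of levels are exact Poisson intervals, those of shares of cells are by Clopper-Pearson, and those of ratios are exact given the sum of both counts. A ratio is the LPS level over the control level, and it was called higher or lower from 1.5-fold on, among pairs of a gene and a cluster with at least 50 UMIs over both libraries.

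The control library held 152624585 UMIs in 11531 cells (median 12479 per cell) and the LPS library 127580475 UMIs in 12689 cells (median 9432), and 194 barcodes occurred in both. The cardiomyocyte marker list summed to 12356 CPM in the control and 12853 CPM in the LPS cells of cluster 3, the macrophage list to 7233 and 5654 CPM in cluster 6, and the endothelial list to 1816 and 1700 CPM in cluster 4. The labels call the cells ICA cells, and the paper marked ICA cells in these data by Dbh and Ddc. In cluster 3 Dbh had 180 control and 136 LPS UMIs, and Ddc had 351 and 312. Th, whose enzyme opens catecholamine synthesis, had 0 UMIs in cluster 3 and 5 control and 4 LPS UMIs in all. Of 10 genes fixed as an LPS response list, all 10 were higher with LPS in cluster 0, and the list's sum went from 7676 to 44054 CPM in the macrophages of cluster 6. The median log2 ratio over all genes was -0.13 in cluster 0, -0.12 in cluster 2 and -0.31 in cluster 6, and between -0.09 and 0.04 in the other clusters, so ratios in those 3 clusters are to be read against these medians.

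Chaperones bind unfolded or partly folded proteins and keep them from aggregating. Proteins of the HSP70 family (Hspa genes) hold clients in cycles of ATP hydrolysis, driven by J-domain partners such as Dnajb1 and reset by nucleotide exchange factors such as Hsph1, while HSP90 proteins act later on kinases and receptors and small heat-shock proteins such as Hspb1 hold clients without ATP. Heat-shock factor 1 turns on the inducible genes of the cytosol through heat-shock elements in their promoters, whereas Hspa5, the HSP70 of the endoplasmic reticulum (ER), answers to the unfolded protein response through ER stress elements.

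RefSeq promoters were at hand for 6 of the 8 genes, with none for Hspa1b and Hsp90aa1. The 250 bases before the start of 4 of them are shown, chosen because these genes had a pair past 1.5-fold between the libraries. Whether the elements bear on those ratios was not tested. In the first 3, capitals mark the letters GAANNTTC, the core of a heat-shock element, and in Hspa5 they mark the ER stress element. Coordinates are of GRCr8. Hspa8 lies at chr8:50080264-50080513 on the plus strand, Hspb1 at chr12:26432302-26432551 on the minus strand, Hsph1 at chr12:10427118-10427367 on the plus strand and Hspa5 at chr3:38452766-38453015 on the plus strand.
Hspa8: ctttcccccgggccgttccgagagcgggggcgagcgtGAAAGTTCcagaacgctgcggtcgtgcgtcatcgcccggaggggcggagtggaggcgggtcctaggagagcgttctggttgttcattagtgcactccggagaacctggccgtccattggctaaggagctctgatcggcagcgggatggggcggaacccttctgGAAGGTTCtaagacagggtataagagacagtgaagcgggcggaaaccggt
Hspb1: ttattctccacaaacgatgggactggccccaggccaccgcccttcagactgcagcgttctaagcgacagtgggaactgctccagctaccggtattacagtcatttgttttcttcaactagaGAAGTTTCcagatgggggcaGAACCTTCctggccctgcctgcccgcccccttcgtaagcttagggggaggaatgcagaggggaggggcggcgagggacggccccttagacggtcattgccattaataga
Hsph1: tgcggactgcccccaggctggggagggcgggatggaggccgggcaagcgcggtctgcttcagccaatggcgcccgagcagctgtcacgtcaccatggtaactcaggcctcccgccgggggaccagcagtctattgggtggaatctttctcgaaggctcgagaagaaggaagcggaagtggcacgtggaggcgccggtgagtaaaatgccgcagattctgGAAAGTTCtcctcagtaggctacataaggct
Hspa5: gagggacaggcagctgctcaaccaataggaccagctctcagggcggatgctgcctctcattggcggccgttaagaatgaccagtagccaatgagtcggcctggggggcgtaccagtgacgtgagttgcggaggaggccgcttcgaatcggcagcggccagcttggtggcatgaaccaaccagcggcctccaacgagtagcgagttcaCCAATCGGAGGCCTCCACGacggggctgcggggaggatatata

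GAANNTTC, which reads the same on both strands, began 213 and 50 bases before the start of Hspa8, 129 and 109 bases before that of Hspb1, 31 bases before that of Hsph1 and 11 bases before that of Dnajb1. It was absent from these windows of Hspa5 and Hsp90ab1. Of 33469 promoters of the same length, 7.23% held it. A heat-shock element of 3 units, searched on both strands and overlapping the former, was present in Hspa8 and Hsph1 and in 0.663% of all promoters. The ER stress element, also searched on both strands, was present in Hspa5, 43 to 25 bases before the start, and in 0.0657% of all promoters. TATAAA was found in none of the 6 windows and in 12.9% of all. These matches are letters and no evidence of binding.

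Between the libraries the chaperones differed by less than 1.5-fold in most clusters. The ratio of Hspb1 was below 1 in all 11 clusters and passed 1.5-fold in 2 of them. By total UMIs the median gene was itself below 1 in every cluster except cluster 10. The share of all genes below 1 in every cluster was not counted. The clusters come from the same 2 libraries and are not independent observations. In fibroblast clusters 0 and 1 the ratios of Hspa5 (1.33 and 1.28) and Hsph1 (1.43 and 1.37) were above 1 and within 1.5-fold. In fibroblast cluster 7 the ratio of Hspa5 was 1.41 and that of Hsph1 0.942, with an interval that includes 1. Of 88 pairs of a chaperone and a cluster, 67 had enough UMIs. Hspa8 in macrophages and Hspa5 in cluster 10 were higher by 1.5-fold or more, 2 pairs or 2.99%, where 7.02% of all 74909 pairs of a gene and a cluster were higher. Hspb1 in clusters 2 and 5 and Hsph1 in macrophages were lower, 3 pairs or 4.48%, where 14.3% of all pairs were lower. The other 62 pairs were within 1.5-fold. The genes behind these shares were not matched to the chaperones by UMIs, and counting error is larger at low counts. When the libraries were scaled by trimmed mean of M-values (TMM) in place of total UMIs, 5 pairs were higher and 1 lower, with 9.32% of all pairs higher and 10.5% lower.

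**Figure D1:**
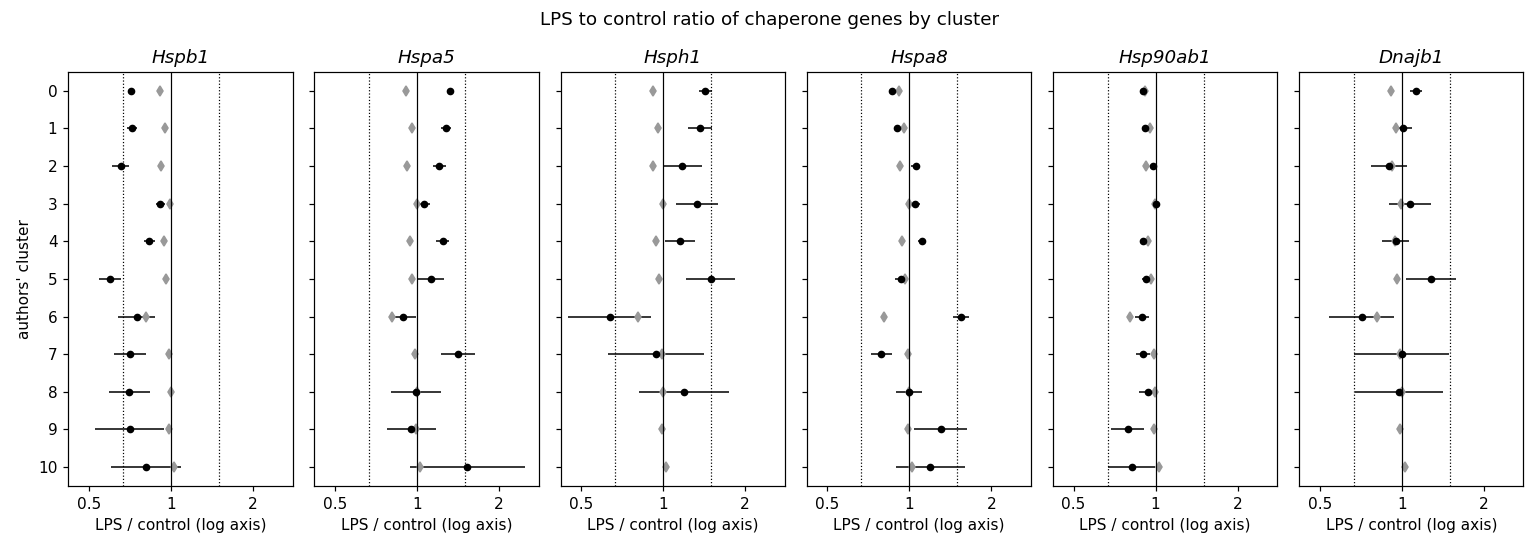
LPS to control ratio (log axis) of 6 chaperone genes in each cluster, for pairs with at least 50 UMIs. Black points are ratios with 95% exact conditional intervals, grey diamonds the median ratio of all genes in the cluster, the solid line 1 and the dotted lines 1.5-fold in either direction. Hspb1 lies left of 1 in all 11 clusters, and Hspa8 in cluster 6 lies at 1.55.

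Hspb1 (ENSRNOG00000023546) encodes a small heat-shock protein abundant in muscle, which holds unfolding proteins and protects actin filaments. Its level was highest in cluster 3, at 870 CPM (848 to 892) in control and 796 CPM (773 to 820) in LPS cells. Cluster 10 came next with 695 and 565 CPM, then endothelial cluster 4 with 397 and 331 CPM and fibroblast cluster 0 with 370.4 and 265 CPM. Clusters 9, 7 and 8 had 353, 351 and 301 CPM in control and 250.3, 248 and 212 CPM with LPS. These levels followed cluster 0 with overlapping intervals from neighbour to neighbour.

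Lower levels were found in endothelial cluster 5 (293 and 175 CPM), fibroblast cluster 1 (245 and 177 CPM) and cluster 2 (242 and 158 CPM). Macrophages had the lowest, 135 CPM (122 to 148) in control and 101 CPM (88.9 to 114) with LPS. Cluster 3 therefore stood 6.45-fold above macrophages in control and 7.89-fold with LPS. The order of the clusters was the same in both libraries except for clusters 1 and 5, which changed places.

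In every one of the 11 clusters the ratio of Hspb1 was below 1, by total UMIs and with TMM. The ratio was 0.598 (0.546 to 0.654) in cluster 5 and 0.654 (0.611 to 0.700) in cluster 2, the clusters where it passed 1.5-fold. In cluster 0 it was 0.715 (0.702 to 0.728), where the median gene stood at -0.13 on the log2 scale and Hspb1 at -0.48. It was 0.722 in cluster 1, 0.707 in cluster 7, 0.832 in cluster 4 and 0.749 in cluster 6. The ratio nearest to 1 was that of cluster 3, 0.916 (0.881 to 0.952). The interval reached 1 in cluster 10 alone, whose 16 control and 26 LPS cells gave 100 and 90 UMIs. In macrophages the log2 ratio of Hspb1 was -0.42, near the median gene's -0.31.

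Shares of cells with a UMI were compared after each cell had been thinned at random to 3000 UMIs. Hspb1 was seen in 63.9% (62.8 to 65.1) of control and 50.7% (49.6 to 51.9) of LPS cells of cluster 0, in 57.7% and 41.3% of cluster 5 and in 24.9% (19.96 to 30.4) and 17.9% (13.7 to 22.8) of macrophages. Without thinning these shares were 96.3% and 86.4%, 89.7% and 72.0%, and 61.2% and 38.5%. In cluster 3 the thinned shares were 87.3% and 85.2%, with overlapping intervals. Droplets carry free RNA, and since all classes may make chaperones none could serve as a background. The cardiomyocyte markers, which macrophages should lack, summed to 239.5 and 228.5 CPM in cluster 6. The fibroblast marker list summed to 3999 CPM in control and 3036 CPM in LPS cells there, against 11999 and 10930 CPM in cluster 0. The part of free RNA in the Hspb1 values of macrophages was not tested.

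Cells of cluster 0 were also put into 3 groups of equal size by their share of mitochondrial UMIs. Here and below such groups were cut within each library, so their bounds differ and they are not matched between libraries. The lowest group ended at a share of 3.11% in control and 2.69% in LPS cells. Hspb1 was at 408, 368 and 333 CPM in control cells from the lowest to the highest share. In LPS cells it was at 292, 268 and 233 CPM. The 3 groups of a library are parts of it and not separate observations. The part of the mitochondrial share in the ratio of Hspb1 was not tested. By UMIs per cell the control groups had 362 to 375 CPM and the LPS groups 257 to 267 CPM.

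The other small heat-shock proteins were described by a fixed list of 6 genes. In cluster 0, 0 were higher and 2 of 5 tested lower, Hspb6 (0.539) and Hspb7 (0.503), and Hspb8 had the highest ratio, 1.14. The list's median log2 ratio was -0.58 there. The background in cluster 0 was 6.92% of 12247 genes higher and 19.7% lower. In endothelial cluster 4, 3 of 4 tested genes were lower, Cryab (0.632), Hspb6 (0.468) and Hspb7 (0.493), where 5.64% of 9492 genes were higher and 13.2% lower. In macrophages 1 of 2 tested genes was lower, Cryab (0.618), where 8.80% of 6385 genes were higher and 30.8% lower. In cluster 3, where the list summed to 2082 CPM in control and 2026 CPM in LPS cells, 0 of 6 passed 1.5-fold, against 4.38% of 8465 genes higher and 5.40% lower. Markers of cardiomyocytes, which also make these proteins, were lower by 1.5-fold in 0 of 8 tested genes in cluster 0 and 1 of 6 in cluster 4, and their sums went from 226 to 189 CPM in the former and from 266 to 209 CPM in the latter. In cluster 4, 0.786 was the ratio of the cardiomyocyte sums and 0.630 that of the small heat-shock protein sums. Fibroblasts carry these genes too, as the list summed to 446 CPM in control cells of cluster 0, against 162 CPM in cluster 4. The fibroblast marker list went from 3367 to 2408 CPM in cluster 4, a ratio of 0.715. With TMM the counts were 2 lower in cluster 0, 2 in cluster 4 and 0 in macrophages. Of all genes 15.1%, 10.1% and 15.5% were lower there with TMM, and Cryab stayed below 1 in all 3. The part of free RNA of cardiomyocytes or fibroblasts in these ratios was not tested.

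**Figure D2:**
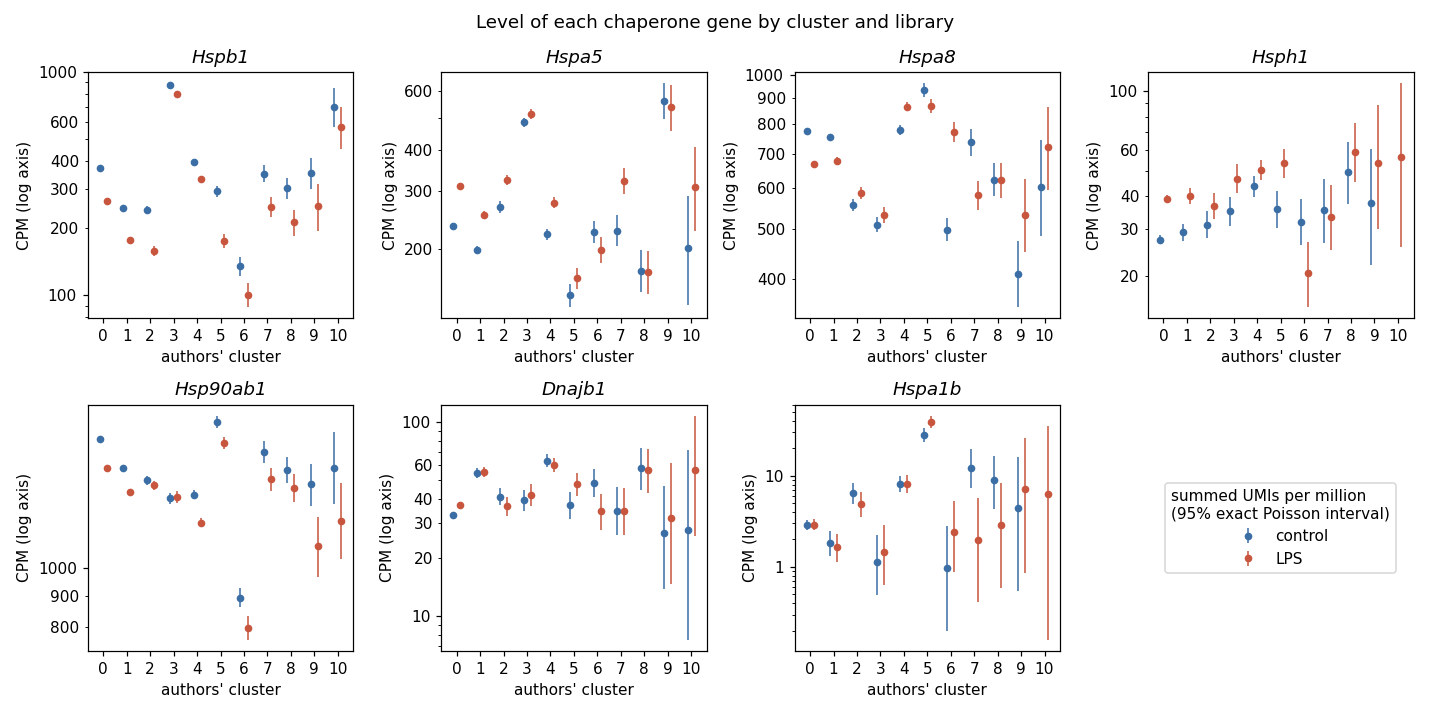
Level of each of 7 chaperone genes (CPM, log axis) in each cluster, control in blue and LPS in red, with 95% exact Poisson intervals. Hspb1 is highest in cluster 3 and Hspa1b in cluster 5 in both libraries, and the control values of Hsph1 and Hspa1b in cluster 10 are at 0 UMIs and not drawn.

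Hspa5 (ENSRNOG00000018294) encodes BiP, the HSP70 chaperone of the ER lumen, which also keeps the sensors of the unfolded protein response inactive. Its highest levels were those of cluster 9 (562 CPM in control and 536 CPM in LPS cells) and cluster 3 (483 and 513 CPM), whose intervals overlap in both libraries. Mitochondrial genes took a median of 14.02% and 12.6% of UMIs in cluster 9 and of 17.9% and 17.3% in cluster 3, against 2.83% to 4.13% in the other clusters. Its lowest level was that of endothelial cluster 5, 145 CPM (134 to 157) and 163 CPM (152 to 175). The 2 endothelial clusters differed beyond counting error, as cluster 4 had 222 and 276 CPM.

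The ratio of Hspa5 was above 1 in 8 of 11 clusters, and with TMM also in clusters 6 and 8, but only cluster 10 passed 1.5-fold by total UMIs. In cluster 0 it went from 234 CPM (231 to 237) to 310.4 CPM (306 to 314), a ratio of 1.33 (1.30 to 1.35), and its share of cells from 47.4% to 56.2% (89.8% and 89.3% without thinning). The ratio was 1.28 in cluster 1, 1.41 (1.23 to 1.63) in cluster 7, 1.21 in cluster 2 and 1.245 in cluster 4. It was 1.06 (1.01 to 1.12) in cluster 3. The ratio of 1.52 in cluster 10 rests on 29 and 49 UMIs and its interval reaches from 0.944 to 2.50. In macrophages Hspa5 had 225 CPM in control and 199 CPM with LPS, a ratio of 0.885 (0.787 to 0.994), which turned to 1.10 with TMM. Clusters 8 and 9 had 0.992 and 0.954, with intervals that include 1. Within cluster 0 the 3 groups by mitochondrial share had 216 to 256 CPM in control and 276 to 356 CPM in LPS cells.

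The other ER chaperones and genes of the unfolded protein response were read from a list of 22 genes. In cluster 0, 0 were higher and 0 lower, and with TMM 3 were higher (Dnajb9, Manf and Ddit3). The highest ratio was 1.44 for Dnajb9, a J-domain protein of the ER that binds BiP, and the lowest 0.854 for Xbp1, a transcription factor of the response. In cluster 3, 0 were higher and 2 lower (Xbp1 and Edem1), in cluster 4, 1 was higher (Ddit3) and 0 lower, and in macrophages, 1 of 21 tested was higher (Dnajb9) and 4 were lower (Sdf2l1, Atf6, Syvn1 and Sel1l). With TMM the macrophage counts were 3 higher and 1 lower. Of all genes of macrophages, 8.80% were higher and 30.8% lower by total UMIs, and 16.7% and 15.5% with TMM, so the TMM share of higher ER genes lies near that of all genes. By total UMIs 6.92% of all genes were higher and 19.7% lower in cluster 0. The shares were 4.38% and 5.40% in cluster 3, and 5.64% and 13.2% in cluster 4. With TMM 9.46% of all genes were higher in cluster 0 and 15.1% lower, 4.70% and 5.08% in cluster 3, and 7.25% and 10.1% in cluster 4. The median log2 ratio of the list was 0.05 in cluster 0 and -0.16 in macrophages, each above the median of all genes.

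Hspa8 (ENSRNOG00000034066) encodes the constitutive HSP70 of the cytosol, HSC70. It was highest in endothelial cluster 5, at 934 CPM (905 to 963) in control and 868 CPM (841 to 895) in LPS cells, and cluster 4 followed with 781 and 867 CPM, overlapping with it in the LPS library. Cluster 0 had 775 and 670.0 CPM, cluster 1 had 755 and 678 CPM, and cluster 7 had 738 and 581 CPM. In the 3 fibroblast clusters the ratios were below 1 and within 1.5-fold, at 0.865 (0.855 to 0.875), 0.898 and 0.788, and cluster 5 had 0.930. The groups of cluster 0 by UMIs per cell had 698 to 813 CPM in control and 601 to 713 CPM in LPS cells, ranges that overlap. By mitochondrial share they had 768 to 779 CPM in control and 610.5 to 726 CPM in LPS cells. Clusters 2, 3 and 8 had ratios of 1.06, 1.04 and 0.996. Above 1 but within 1.5-fold were also cluster 4 at 1.11 (1.08 to 1.14), cluster 9 at 1.30 (1.04 to 1.63) and cluster 10 at 1.19 (0.895 to 1.59). Without cells of over 10% mitochondrial UMIs, Hspa8 in cluster 9 passed 1.5-fold at 1.69, and Hspb1 there did so at 0.531. Cluster 9 had a median mitochondrial share of 14.02% in control and 12.6% in LPS cells. Most of its cells were therefore left out, and no interval was computed.

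Macrophages were the cluster where Hspa8 passed 1.5-fold with all cells. Their Hspa8 level was 499 CPM (474 to 524) in control, the lowest but for cluster 9 (409 CPM) and overlapping with cluster 3 (509.7 CPM), and 773 CPM (739 to 808) with LPS, the highest but for the 2 endothelial clusters. The ratio was 1.55 (1.45 to 1.66) from 1553 and 1921 UMIs, while the median gene of macrophages had a log2 ratio of -0.31. After thinning, 62.3% (56.3 to 68.0) of control and 82.1% (77.2 to 86.3) of LPS macrophages had a UMI, against 91.8% and 93.5% without thinning.

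The distribution of Hspa8 UMIs over macrophages was read from thinned cells. These had a median of 1 UMI in control and 2 UMIs with LPS, the highest cell had 7 and 20 UMIs, and 7 of 281 control cells against 36 of 290 LPS cells had 5 or more. The variance over the mean was 1.44 in control and 2.65 with LPS, where the median gene had 1.08 and 1.11. In cluster 0 the same value for Hspa8 was 1.34 and 1.37. This value can grow with the mean, which was 1.26 and 2.41 UMIs per macrophage, and the tenth of macrophages with the most Hspa8 UMIs held 32.7% of them in control and 33.8% with LPS.

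**Figure D3:**
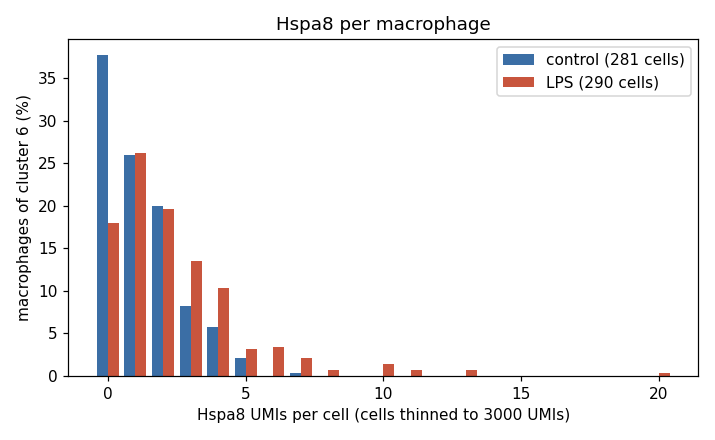
Hspa8 UMIs per cell (x axis, cells thinned to 3000 UMIs) as the percentage of macrophages of cluster 6 (y axis), 281 control cells in blue and 290 LPS cells in red. Cells without a UMI are 37.7% of control and 17.9% of LPS macrophages, and the LPS cells reach 20 UMIs.

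Hsph1 (ENSRNOG00000000902) encodes HSP105, a nucleotide exchange factor that resets HSP70. It was a gene of few UMIs, at 27.4 to 49.5 CPM in the control clusters with any UMI and 20.5 to 59.1 CPM in LPS clusters. Neighbours in the order of the clusters had overlapping intervals, except clusters 0 and 10 in control, with cluster 8 highest in both libraries (49.5 and 59.1 CPM). In cluster 0 it went from 27.4 CPM (26.3 to 28.5) to 39.1 CPM (37.7 to 40.6), a ratio of 1.43 (1.35 to 1.51), and this passed 1.5-fold with TMM (1.57). The ratio was 1.49 (1.21 to 1.84) in cluster 5, 1.37 in cluster 1 and 1.33 (1.11 to 1.59) in cluster 3. In fibroblast cluster 7 it was 0.942 (0.627 to 1.41) from 52 and 51 UMIs. In cluster 5 the thinned share of cells was 10.9% (7.80 to 14.6) in control and 19.0% (15.5 to 23.0) with LPS, against 33.4% and 40.6% without thinning.

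In macrophages Hsph1 was lower with LPS, 32.1 CPM (26.1 to 39.0) against 20.5 CPM (15.3 to 27.0), a ratio of 0.639 (0.447 to 0.904) from 100 and 51 UMIs. With TMM the ratio was 0.797, within 1.5-fold. The thinned shares, 9.25% and 7.93%, had overlapping intervals. In cluster 0 the 3 groups by mitochondrial share had 26.5 to 28.9 CPM in control and 37.2 to 40.2 CPM with LPS.

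Dnajb1 (ENSRNOG00000021824) encodes HSP40, a J-domain protein that hands clients to HSP70 and is itself heat-inducible. It was highest in endothelial cluster 4, at 63.0 CPM (58.4 to 67.8) and 59.8 CPM (55.0 to 64.9). Cluster 8 had 57.6 and 56.2 CPM and fibroblast cluster 1 had 54.5 and 55.1 CPM. Cluster 0 had 33.2 and 37.4 CPM, a ratio of 1.13 (1.07 to 1.19). In macrophages the ratio was 0.714 (0.541 to 0.936), with 151 and 86 UMIs, and in cluster 5 it was 1.28 (1.04 to 1.58). In clusters 1, 2, 3, 4, 7 and 8 the interval of the ratio included 1. All neighbours in the order of the clusters had overlapping intervals in both libraries.

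Hspa1b (ENSRNOG00000050647) encodes an inducible HSP70, and it stands in the gene list under its locus name, matched here by its RefSeq gene number. Its near-identical neighbour Hspa1a had 0 UMIs in both libraries, and how reads of the pair were split between them was not tested. Hspa1b had 616 control and 569 LPS UMIs in all. Endothelial cluster 5 was highest, at 28.2 CPM (23.4 to 33.8) in control and 39.3 CPM (33.8 to 45.5) with LPS, a ratio of 1.39 (1.10 to 1.77). That was 9.83-fold (7.85 to 12.3) the level of cluster 0 in control and 13.6-fold (11.1 to 16.6) with LPS.

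The other endothelial cluster, cluster 4, had 8.18 and 8.12 CPM of Hspa1b, with a ratio of 0.992 (0.725 to 1.36). Cluster 2 had 6.41 and 4.88 CPM, cluster 0 had 2.87 and 2.90 CPM and cluster 1 had 1.83 and 1.64 CPM. Cluster 3 had 8 UMIs in each library. Macrophages had 3 and 6 UMIs, cluster 8 had 10 and 3, and cluster 7 had 18 and 3, counts too low for a call. After thinning, 8.29% (5.62 to 11.7) of control and 11.2% (8.43 to 14.6) of LPS cells of cluster 5 had a UMI, against 0.833% and 0.911% in cluster 0 and 0.239% and 0.108% in cluster 3. The unthinned shares were 25.7% and 27.5% in cluster 5, 3.41% and 2.60% in cluster 0 and 0.957% and 0.861% in cluster 3. The cells of cluster 5 held a median of 10172 and 8998 UMIs, and those of cluster 0 held 12968 and 9822. No cell of cluster 5 had more than 2 Hspa1b UMIs after thinning.

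**Figure D4:**
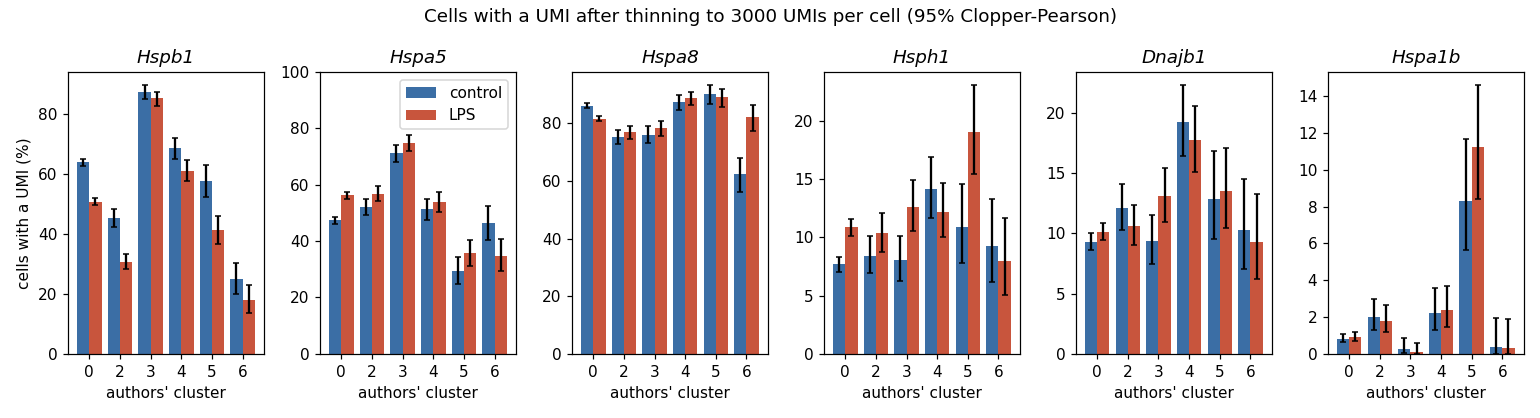
Percentage of cells with a UMI of 6 chaperone genes (y axis, each panel on its own scale) in clusters 0, 2, 3, 4, 5 and 6 after thinning to 3000 UMIs per cell, control in blue and LPS in red, with 95% Clopper-Pearson intervals. Hspa1b reaches 8.29% and 11.2% in cluster 5, and Hspa8 in cluster 6 goes from 62.3% to 82.1%.

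The cytosolic HSP90 pair, which matures kinases and steroid receptors, was counted through a single gene. Hsp90ab1 (ENSRNOG00000019834), the constitutive form, had 234912 control and 178676 LPS UMIs. Hsp90aa1 (ENSRNOG00000007219), the inducible form, was counted at 0 in all cells of both libraries, which allows up to 0.0197 CPM in control and 0.0235 CPM in LPS cells. The RefSeq table lists 16 pseudogenes of Hsp90aa1, and whether reads shared with them went uncounted was not tested, so the 0 is not read as a lack of expression. Of all listed genes, 7394 (29.1%) had 0 UMIs in both libraries.

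Hsp90ab1 was highest in endothelial cluster 5 (1746 and 1612 CPM) and in cluster 0 (1633 and 1466 CPM). Macrophages were lowest, at 894 CPM (861 to 928) and 796 CPM (762 to 832), or 0.547 and 0.544 of cluster 0. The ratio of LPS to control was below 1 in 10 of 11 clusters, of which clusters 2 and 6 were above 1 with TMM, and lay between 0.790 in cluster 9 and 1.01 in cluster 3. In cluster 0 it was 0.897 (0.890 to 0.904), close to the median gene there, and in macrophages it was 0.891, which turned to 1.11 with TMM. The groups of cluster 0 by mitochondrial share had 1558 to 1712 CPM in control and 1327 to 1600 CPM in LPS cells, ranges that overlap. By UMIs per cell they had 1592 to 1650 CPM in control and 1422 to 1495 CPM in LPS cells.

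Compared with cluster 0, the level differed by 1.5-fold or more in the same direction in both libraries for 17 of 70 pairs of a chaperone and a cluster. It was higher in 11 pairs (15.7%), where 12.1% of all 107908 pairs were higher, and lower in 6 pairs (8.57%), where 11.4% were lower. The higher pairs were Hspa1b in clusters 2, 4, 5 and 9, Hspa5 in clusters 3 and 9, Hspb1 in clusters 3 and 10, Dnajb1 in clusters 4 and 8, and Hsph1 in cluster 8. The lower pairs were Hspb1 in clusters 2 and 6, Hspa1b in clusters 1 and 3, Hspa5 in cluster 5 and Hsp90ab1 in cluster 6. Hspa8 was not among them. With TMM in place of total UMIs 5 pairs were higher than cluster 0, and which pairs these were is not given here. The minimum of 50 UMIs was met here by a cluster and cluster 0 together in each library, so that Hspa1b in cluster 9 rests on 2 UMIs in each library and Hspa1b in cluster 3 on 8, with intervals in LPS cells that include 1, and neither is read as a difference. When the minimum was asked of the other cluster itself, an alternative chosen after seeing the data, these were the 2 pairs lost, and 10 of 60 pairs were higher and 5 lower, where 15.1% and 6.97% of all 62656 pairs were. The clusters were built from the genes of the same cells, so these differences are a description.

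Within cluster 3, cells with a Dbh UMI were set beside the other cells, since the paper marked ICA cells by Dbh, the enzyme that makes noradrenaline. The paper's ICA cells were a subcluster of cluster 3 expressing Dbh, which was not used here. Of 268 control and 175 LPS Dbh UMIs in all, 180 and 136 lay in cluster 3. With so few, the other cells can include ICA cells without a UMI. Cells with a Dbh UMI were 156 of 836 in control and 121 of 929 with LPS. They were deeper, with medians of 8200 against 7454 UMIs in control and 5379 against 5228 with LPS. Hspa5 was at 540.3 against 468 CPM in control, a ratio of 1.15 whose interval lay above 1, and at 549 against 508 CPM with LPS, a ratio of 1.08 (0.970 to 1.20). Hspb1 was at 840.5 against 877 CPM and 793.5 against 797 CPM, with ratios of 0.958 (0.899 to 1.02) and 0.996 (0.911 to 1.09). The intervals of Hspa8, Hsph1, Hsp90ab1 and Dnajb1 included 1 in both libraries.

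The spread among the cells of a cluster was read in the same way. In cluster 3 the variance of Hspb1 over its mean was 1.72 in control and 1.69 with LPS, above that of 98.7% and 98.3% of genes. The genes were not matched by their mean, which for Hspb1 was 2.74 and 2.45 UMIs per cell and with which this value can grow. In cluster 4 the variance over the mean was 2.29 and 1.75 for Hspa5, with 24 UMIs of 3000 in the highest control cell. Between chaperones the rank correlation over the thinned cells of a cluster lay between -0.129 and 0.198 in clusters 0, 3, 4, 5 and 6. In counts this sparse these values are no finding.

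Over 20 points, the 10 clusters with at least 50 cells in each library, the genes most like each chaperone in log2(CPM + 1) were ranked among 12247 genes by Pearson's r. Hspa5 was closest to Kars (0.929), Vcp (0.912) and Canx (0.901), an ER chaperone for glycoproteins. Genes close to Hspb1 included Acads (0.891) and Rabgap1l (0.881), and Hsp90ab1 was closest to Rpl5 (0.918), Eef2 (0.907) and Rack1 (0.905), genes of translation. Hspa8 was closest to Nudt21 (0.831), Ythdf2 (0.817) and Ppp1r11 (0.796). Hspa1b was closest to Cped1 (0.874), Hmcn1 (0.838) and Traf3ip2 (0.820), Hsph1 to Dcun1d4 (0.845), Zfp354a (0.833) and Mrm3 (0.831), and Dnajb1 to Ywhaq (0.862), Ifrd2 (0.861) and Hist1h1d (0.850). Among the chaperones the lowest r was -0.727, between Hspa5 and Hspa8. The points of a library share its depth and its free RNA, and r is given as a description.

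Other partners of these chaperones were read from lists fixed with the members. As background for these lists, 6.92% of all genes were higher and 19.7% lower in cluster 0. For clusters 3, 4 and 6 the shares were 4.38%, 5.64% and 8.80% higher and 5.40%, 13.2% and 30.8% lower. Of 9 other HSP70 and HSP110 genes, 0 were higher and 2 of 8 tested lower in cluster 0, namely Hspa2 (11.4 and 4.41 CPM, ratio 0.386) and Hspa12a, and the highest was Hspa13 (1.46, or 1.61 with TMM). In clusters 3, 4 and 6, 0 of 4, 0 of 5 and 0 of 3 passed 1.5-fold. Of 4 genes of heat-shock factors and their regulators, Hsf4 was lower in cluster 0 (0.432, from 108 and 38 UMIs) and Hsf1, the main activator, had the highest ratio there (1.16). In macrophages Hsf2 was higher (1.63) and Hsf1 lower (0.599, from 46 and 22 UMIs, with an interval up to 1.02), and with TMM Hsf1 was within 1.5-fold.

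Of 12 J-domain co-chaperones, 0 passed 1.5-fold in cluster 0, with Dnaja4 highest (1.47, or 1.62 with TMM) and Dnajb2 lowest (0.704). In cluster 3, 1 was higher (Dnajb5), in cluster 4, 1 was higher (Dnaja1) and in macrophages, 2 of 7 tested were lower (Dnaja3 and Dnajb2), whereas with TMM 3 were higher and 1 lower. The lower share is near that of all macrophage genes, 30.8% by total UMIs, and with TMM 16.7% of all genes were higher and 15.5% lower. Of 6 nucleotide exchange factors of the BAG group and their like, Bag2 was lower in cluster 0 (33.5 and 21.8 CPM, ratio 0.651, or 0.717 with TMM) and Hspbp1 highest (1.11). In macrophages Bag3, which links HSP70 to small heat-shock proteins, was lower (34.0 and 12.5 CPM, ratio 0.366).

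Of 12 HSP90 co-chaperones, Fkbp5, an immunophilin induced by glucocorticoids, was higher in cluster 0, from 5.78 to 17.3 CPM or 3.00-fold (2.71 to 3.33), and Sugt1 had the lowest ratio (0.900). In clusters 3 and 4, 0 passed 1.5-fold, and in macrophages 3 were lower (Ahsa1, Fkbp4 and Cacybp), and 0 with TMM, where 30.8% and 15.5% of all genes were lower. Of the mitochondrial chaperones, 5 were tested in clusters 0 and 4 and 4 in clusters 3 and 6, where Hspa9 was below the minimum (34 and 13 UMIs in cluster 3, ratio 0.494 with an interval from 0.239 to 0.960). None of those tested and none of the 8 subunits of the CCT chaperonin passed 1.5-fold in these clusters, except Hspe1 in cluster 4 with TMM. In cluster 0 Hspe1 (1.31) and Hspa9 (0.816) were the extremes of the former and Cct6a (1.15) and Cct4 (0.772) those of the latter.

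**Figure D5:**
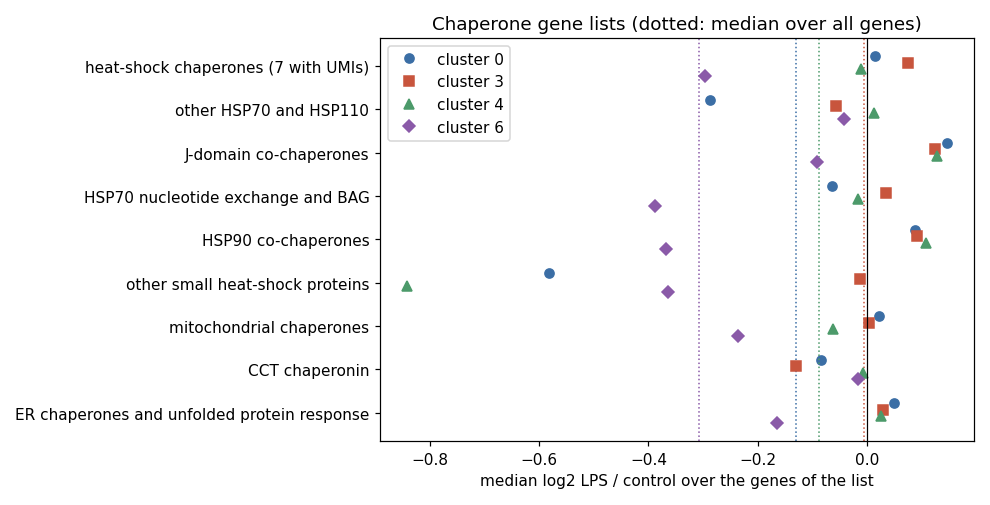
Median log2 ratio of LPS to control (x axis) over the tested genes of 9 chaperone lists (y axis) in clusters 0, 3, 4 and 6, with the median of all genes of each cluster as a dotted line of the same colour. The other small heat-shock proteins lie at -0.58 in cluster 0 and -0.84 in cluster 4, and the other lists lie between -0.39 and 0.145.

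Enzymatic detachment of cells can switch on immediate early genes along with heat-shock genes, and both libraries were detached in the same way. In cluster 0, where 6.92% of all genes were higher and 19.7% lower, 11 such genes were measured. Of these, 4 were higher with LPS (Jun, Junb, Atf3 and Btg2) and 3 lower (Fos, Fosb and Socs3). Atf3 had the highest ratio, 4.54 from 138 and 511 UMIs, and Fos the lowest, 0.292, from 51.7 to 15.1 CPM. In clusters 3, 4 and 6, 3 of 8, 2 of 9 and 4 of 8 tested genes were higher and 1 was lower in each, Fos. Of all genes of these clusters, 4.38%, 5.64% and 8.80% were higher and 5.40%, 13.2% and 30.8% lower. The summed level of the list went from 354 to 442 CPM in cluster 0, and in macrophages the sums were 435 and 679.9 CPM. The part of detachment in the chaperone levels was not tested.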

How the data were processed

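Cardiac cells of neonatal rats were measured by single-cell RNA sequencing in 2 libraries, 1 per condition. The deposited values are raw counts of UMIs per gene and cell barcode, made by the authors without normalization, with a cluster and cell type per cell from the authors. The submitters' processing notes name Cell Ranger 2.2.0 and Seurat 2.3.4. The genome build and annotation of the counts are not given in the sources used here, and promoters of GRCr8 come from RefSeq. How reads that fit several genes were counted is not given, which bears on Hsp90aa1 and on the Hspa1a and Hspa1b pair. Depth ranged from 3682 to 70604 UMIs per control cell and from 2821 to 46594 per LPS cell. Cells that carry no cluster, 2 in control and 8 in LPS, were not used, and no other filter was applied.

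Of the 8 members, 7 were found by symbol and 1 by its RefSeq gene number. UMIs were summed per cluster and library in Python 3.11.15 (numpy 2.4.6, scipy 1.17.1, pandas 2.3.3). Where a gene had 0 UMIs, 3 UMIs were taken as its upper limit. For shares, 3000 UMIs were drawn from each cell without replacement (seed 1), without the cells that held fewer. Scrublet in scanpy 1.11.5 called fewer than 0.5% of cells, and its calls were not used. One alternative dropped the 8% of cells that scored highest instead, and how well these scores mark doublets was not tested. The ratio script was tested on simulated data. The members and lists were chosen with earlier results of these data known. Named were all members, the genes of each list with the highest and the lowest ratio in cluster 0, and the 3 genes most like each member, of which 1 is not reported here. The other genes named from the lists were picked after their values were seen, as were cluster 5 in the account of spread and the TMM counts over the lists. Alternatives changed the cells used, the total behind CPM, the scaling, the weight of cells, the minimum of UMIs, the fold and the thinning.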

Additional observations from a re-analysis of the deposited data

Results flagged for a closer look

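Of 6 chaperones tested in both, 4 had LPS to control ratios on opposite sides of 1 in the macrophages of cluster 6 and the fibroblasts of cluster 0. These 4 were flagged because both counting intervals were also clear of 1. The share of all genes that do so was not counted, so whether 4 of 6 is unusual is not known. The difference between the clusters was not tested, with 1 library per condition. The ratio in macrophages divided by that in fibroblasts was 1.79 for Hspa8 (1.55 against 0.865), 0.668 for Hspa5 (0.885 against 1.33), 0.447 for Hsph1 (0.639 against 1.43) and 0.634 for Dnajb1 (0.714 against 1.13). The median gene itself had a log2 ratio of -0.31 in macrophages and -0.13 in cluster 0. With TMM the macrophage ratio of Hspa5 was 1.10 and so on the same side of 1 as in fibroblasts, while those of Hspa8, Hsph1 and Dnajb1 were 1.93, 0.797 and 0.890. By total UMIs the macrophage intervals of Hsph1 and Dnajb1 reached up to 0.904 and 0.936. Intervals were not computed with TMM, so Hsph1 and Dnajb1 are not shown to lie clear of 1 there.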

How the results depend on the processing

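No paired analysis was possible because there was a single library for control and a single one for LPS. The count of pairs of a chaperone and a cluster that were higher with LPS, 2 as reported, was 5 with TMM, 1 with a minimum of 200 UMIs, 7 with no minimum, 0 with a fold of 2 and 12 with the lower fold tried. The count of lower pairs, 3 as reported, was 6 without the 8% of cells with the highest Scrublet score, 1 with TMM, 5 with no minimum, 0 with a fold of 2 and 13 with the lower fold. Pairs higher than cluster 0, 11 as reported, were 5 with TMM and 3 with a fold of 2. Pairs lower than cluster 0, 6 as reported, were 1 with a fold of 2 and 11 with the lower fold. Shares of all genes are not given for the other folds and minimums, nor for TMM against cluster 0. Between the libraries the pairs added under TMM were Hsph1 in clusters 0 and 5 and Hspa5 in cluster 7. The lost ones were Hspb1 in cluster 2 and Hsph1 in cluster 6. Without the cells of highest Scrublet score the added pairs were Hspb1 and Dnajb1 in cluster 6 and Hspb1 in cluster 9. Folds and minimums change a count by their construction, and the cause of the other changes was not tested. Of 536 ratios recomputed under 8 alternatives, 479 stayed within the counting interval, 57 did not, and 34 changed side of 1, none of them of Hspb1. The ratio of Hspa8 in macrophages ranged from 1.53 to 1.93 and that of Hspb1 in cluster 5 from 0.594 to 0.637. The share of cells with a UMI depends on depth by construction, and 256 of 352 shares moved out of their interval at 1500 UMIs or without thinning. The minimum of 50 UMIs left out 21 pairs, so no call is made on Hsp90aa1, on Hspa1b in 6 clusters and on Hsph1 and Dnajb1 in clusters 9 and 10.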
